A study of Mus musculus with 7 samples.

Results

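The genes described here are the well-expressed solute carriers of the mouse intestine, 158 of the 362 genes with a solute carrier symbol that were measured among 19938 genes in all. They were chosen by their symbol and by their mean log2 intensity over the 7 arrays of the study, which had to reach 8. A further 202 solute carrier genes lay under that level, and Slc11a2 (8.73) and Slc40a1 (9.97) reached it but were left out by name together with 4 carriers of cystine and bile acids. Because the level chose the members, their mean levels are given as a description only. Among them are 3 genes that carry the symbol and are no carriers, namely Slc7a6os, a gene named for lying opposite Slc7a6, and Slc9a3r1 and Slc9a3r2, scaffold proteins that hold transporters at the membrane.

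Solute carriers are membrane proteins that move small molecules without splitting ATP themselves. Some let a solute run down its gradient, others exchange one solute for another, and others tie uptake to the gradient of sodium or protons that the sodium pump keeps up. In the gut they work in series. Apical carriers of the enterocyte take up sugars, peptides, amino acids, phosphate and vitamins, basolateral carriers pass them on to the blood, and carriers of the Golgi, the lysosome and the mitochondrion supply the inside of the cell. The ileum absorbs nutrients that escaped the upper gut, while the colon takes up salt, water and the short-chain fatty acids that bacteria make, butyrate above all.

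RNA came from the ileum and colon of mice with the normal gene (wild type, WT) and of animals in which Atg4b, a protease needed to process the LC3 proteins of autophagy, was knocked out (KO). All were 3 months old and of a mixed C57Bl6/129Sv strain. Untreated control animals gave 1 array for each genotype and tissue (WT ileum, KO ileum, WT control colon, KO control colon). Colon of animals given dextran sulfate sodium (DSS), a polymer in the drinking water that injures the colonic epithelium, for 7 days and then plain water for 3 days gave KO DSS colon 1, KO DSS colon 2 and WT DSS colon. The labels do not say that the knockout is limited to a tissue, nor whether ileum and colon came from one animal or each array from another, so a p-value speaks of the spread between arrays, which may be technical. Values are log2 of the deposited intensity, a difference of 1 is a doubling, and ± is the standard error of the limma fit over all arrays.

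Some features of the whole arrays bear on what follows. Atg4b was at 7.72, 7.35 and 7.59 on the WT arrays and at 5.39 to 5.45 on the KO arrays. Xist, the RNA of the inactive X chromosome, was at 5.19 to 5.52 on the 4 control arrays and at 12.16 to 12.55 on the 3 DSS arrays, and the Y-linked Eif2s3y was at 9.39 to 9.77 and at 4.28 to 4.39. These markers go against the labelled sex on the 3 WT arrays, and DSS and the sex that the markers show cannot be told apart. KO DSS colon 1 stood apart from the other DSS arrays. Hoxb13, a gene of the distal gut, was at 8.59 there against 10.50 and 10.54. The mean over 12 smooth muscle genes was 10.62 against 9.71 and 9.13. Mep1a, listed among the ileal enterocyte genes, was at 10.76 against 8.27 and 9.17. Control colon had Mep1a at 10.88 and 11.36, so for this gene the other DSS arrays were the low ones. Epithelial genes were high on every array: the mean of 13 of them was 12.22 and 12.04 in ileum, 11.97 and 11.85 in control colon, and 12.05, 12.08 and 12.08 in DSS colon.

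The mean levels of the members ran from 8.02 to 12.95, with a median of 9.45, against a median of 7.33 over all gene values. The 3 members just inside the level were Slc7a9 (8.02), Slc12a9 (8.05) and Slc37a2 (8.08), and the 3 genes just outside were Slc5a6 (7.99), Slc33a1 (7.97) and Slc4a1ap (7.97). By substrate, 28 of 46 measured mitochondrial carriers were members, 27 of 71 carriers of amino acids and peptides, 22 of 31 of metals, 21 of 36 of nucleosides and nucleotide sugars, 18 of 57 of inorganic ions, 13 of 50 of organic ions and lipids, 12 of 32 of sugars, 11 of 18 of vitamins, choline and haem, and 6 of 20 of carboxylates. The brightest probe sets were those of Slc25a5, the adenine nucleotide translocase that swaps ATP for ADP across the inner mitochondrial membrane (mean 12.95), and Slc25a3, its phosphate counterpart (12.72). Others near the top of their families were the creatine carrier Slc6a8 (12.16), the sodium-coupled butyrate carrier Slc5a8 (12.11), the choline carrier family member Slc44a4 (12.12), the sulfate carrier Slc26a2 (11.86) and the copper carrier Slc31a1 (10.97). Each gene is read by its own probes, so these levels give no order of abundance between genes.

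DSS colon differed from control colon in carriers of several kinds. The amino acid exchanger Slc7a5 and the lactate exporter Slc16a3 rose more than any other member, while the phosphate carriers Slc34a2 and Slc20a1, the bicarbonate carrier Slc4a4 and the sugar phosphate carrier Slc37a2 fell furthest. Slc37a2 reached the level for membership only through control colon, so its fall is partly tied to how members were chosen. At an adjusted p below 0.05 (limma, Benjamini-Hochberg over all 19938 genes), 17 of the 158 members rose and 18 fell. That is 10.8% and 11.4% of them, where 7.2% of all genes rose and 3.43% fell, and where 12.6% and 5.22% of the 7889 genes at a mean of 8 or more did. The median difference of the members was -0.01, against -0.01 over all genes and 0.09 over genes at the same level. The counts by family given below are small and were not tested against these shares. In whole tissue, fewer cells of a type and less RNA per cell cannot be told apart.

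**Figure D1:**
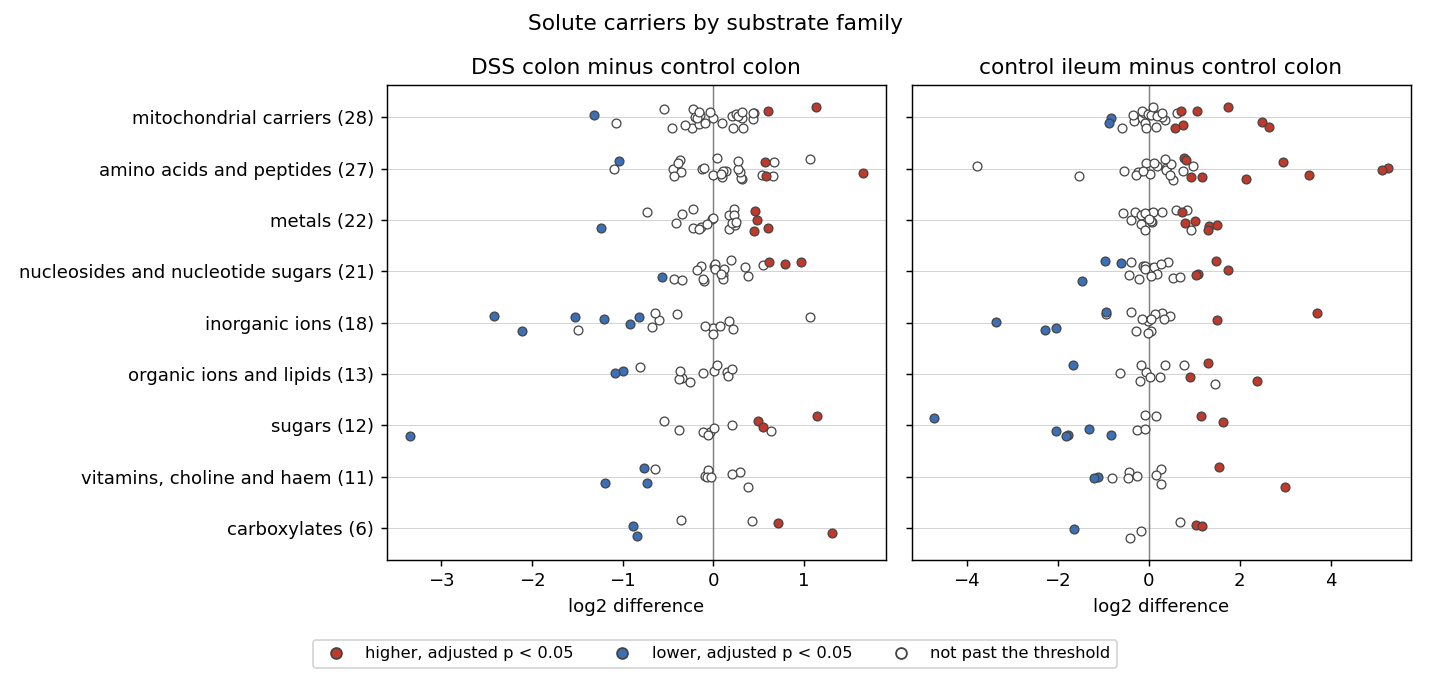
Log2 difference of each of the 158 solute carriers, 1 point per gene, by substrate family (number of members in brackets), for DSS colon minus control colon (left) and control ileum minus control colon (right); the vertical position within a family is spread only for legibility. In DSS colon the inorganic ion carriers past the threshold all lie on the lower side (6 of 18), and in ileum the amino acid and peptide carriers past it all lie on the higher side (9 of 27).

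These calls leaned on single arrays. Without KO DSS colon 1, 25 members rose and 31 fell, among them 16 of the 17 and all 18 of the 18. Of all genes, 10.9% rose and 6.88% fell in that fit. Without either control colon array few members passed in either direction, and few of all genes did. In those fits 1 control array remains, so their counts are not given. Without KO DSS colon 2 the counts were 3 and 13, where 2.71% and 1.3% of all genes passed. Without WT DSS colon they were 4 and 7, where 1.85% and 0.792% did. In each of these fits the shares over all genes moved the same way as the counts. Whether they moved to the same degree was not tested. The difference of Slc4a4 was -1.25 without WT control colon and -1.87 without KO control colon. Differences were steadier than calls: of the 35 called members, 2 moved by over 1.5 times in any of 16 alternative fits, Slc35f6 from 0.61 to 0.37 and Slc37a1 from 0.55 to 0.34, both without KO control colon. Part of this is built in, since fits such as that with a variance trend change only the spread. The calls of Slc16a3, Slc46a1, Slc2a1, Slc39a4, Slc15a1, Slc35f6, Slc37a1, Slc39a7, Slc25a37 and Slc30a1 were each lost in 8 to 12 of those 16 fits. For DSS, the fits without WT ileum, without KO ileum and on colon arrays alone are one and the same. A call lost in that fit is therefore counted more than once. Quantile normalization of the arrays moved the split to 12 higher and 23 lower, where 6.35% and 4.93% of all genes were.

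Cell markers moved over the same arrays. The summed level of 12 smooth muscle genes was 15.26 to 15.29 in control colon and 13.08 to 14.69 in DSS colon, with 3 lower past the threshold. For 11 of 12 listed leukocyte genes it was 11.59 to 11.93 and 12.39 to 12.66, with 6 higher, and for 6 distal gut Hox genes 12.26 to 12.56 and 10.45 to 11.57, with 3 lower. The 6 colonocyte genes summed to 15.56 to 15.61 and 14.79 to 15.09, with 2 lower, and the 13 epithelial genes to 15.91 to 15.97 and 16.01 to 16.06, with 1 higher. The part of these markers in the differences of the carriers was not tested.

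Among the 6 carboxylate carriers, 2 rose and 2 fell. Slc16a3, the monocarboxylate transporter that exports lactate from glycolytic cells, was at 7.14 in WT and 7.66 in KO control colon, and at 8.58, 9.06 and 8.50 in KO DSS colon 1, KO DSS colon 2 and WT DSS colon. All DSS arrays lay above both controls, as the rule for naming the largest differences required. The gene rose by 1.31 ± 0.32, or 2.47-fold (limma adjusted p = 0.0494). The call was lost in 8 of 16 alternative fits, where the difference ran from 0.99 to 1.70 and the adjusted p was 0.0711 after quantile normalization and 0.0655 with labelled sex as a covariate. Slc16a1, the related carrier through which colonocytes take up butyrate, was at 12 and 11.70 in control colon and at 10.86, 10.95 and 11.14 in DSS colon. It fell by 0.84 ± 0.13 (1.8-fold, adjusted p = 0.0133), and Slc5a8, which takes up butyrate together with sodium, by 0.89 ± 0.13 (1.86-fold, adjusted p = 0.0126), from 12.67 and 12.55 to 11.51, 11.87 and 11.74. For both butyrate carriers every DSS array lay below every control array. Slc13a2, a sodium-coupled carrier of citrate and succinate, went the other way, from 10.36 and 9.88 to 10.71, 10.59 and 10.94, and rose by 0.71 ± 0.14 (adjusted p = 0.0261). Embigin (Emb), a chaperone that brings monocarboxylate transporters to the membrane, rose by 0.98 ± 0.20 (adjusted p = 0.0323), while its relative basigin (Bsg) was at 11.40 and 11.32 in control colon and 11.18 to 11.38 in DSS colon.

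Inorganic ion carriers counted 6 lower and 0 higher of 18, with a median difference of -0.62. Slc34a2, the sodium-phosphate cotransporter of the apical membrane, was at 9.17 and 8.42 in control colon and at 6.93, 6.16 and 6.03 in DSS colon, and it fell by 2.42 ± 0.33 (5.34-fold, limma adjusted p = 0.00995). Slc20a1, a phosphate carrier of another family that most cells use, went from 12.66 and 11.92 to 9.78, 10.17 and 10.47 and fell by 2.11 ± 0.28 (4.32-fold, adjusted p = 0.00886). The groups did not overlap for either phosphate carrier, as the rule for naming them required. Over all 19938 genes, 4400 lay higher and 3596 lower in DSS colon without overlap. Without KO DSS colon 1 the differences of the 2 carriers were -2.70 and -1.98. Slc20a2, the relative of Slc20a1, was at 9.50 and 8.99 in control colon and at 9.50, 9.19 and 9.22 in DSS colon, within one range.

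Slc4a4, the sodium-bicarbonate cotransporter of the basolateral membrane, was at 11.53 and 11.03 in control colon and at 9.83, 9.83 and 9.56 in DSS colon. It fell by 1.53 ± 0.18 (2.89-fold, adjusted p = 0.00562) and was the only called member that kept its call in all 16 alternative fits, where the difference ran from -1.87 to -1.25. Slc26a3, the apical exchanger that takes up chloride for bicarbonate, was at 12.68 and 12.75 against 11.61, 11.48 and 12.14, and fell by 0.92 ± 0.16 (adjusted p = 0.0208). The sulfate carrier Slc26a2 fell by 1.21 ± 0.17 (adjusted p = 0.0115), from 12.74 and 12.55 to 11.71, 11.18 and 11.42, and the mitochondrial sodium-calcium exchanger Slc8b1 by 0.82 ± 0.10 (adjusted p = 0.00659). Slc9a3, the sodium-proton exchanger that works beside Slc26a3 in salt uptake, was at 9.22 and 9.31 in control colon and at 11.45, 10.02 and 9.78 in DSS colon. Its 3 DSS arrays lay above both controls, but the difference of 1.07 ± 0.42 did not pass (adjusted p = 0.167). The exchanger Slc9a2 was at 11.09 and 10.72 against 10.71, 10.04 and 10.05, and Slc12a2, which loads chloride into secreting cells, at 11.63 and 11.43 against 11.19, 10.99 and 10.71. Neither of these differences passed (-0.64 ± 0.24, adjusted p = 0.153, and -0.60 ± 0.16, adjusted p = 0.0654).

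A list of channels, pumps and regulators that work with these carriers, 27 of 30 measured, had 2 members higher and 5 lower in DSS colon, with a median difference of -0.10. Over all genes, 7.2% were higher and 3.43% lower. Fxyd4, a regulator of the sodium pump in the distal colon, fell by 2.15 ± 0.15, from 9.33 and 8.95 to 6.85, 7.14 and 6.93 (limma adjusted p = 0.00128). The chloride channel Ano1 fell by 1.43 ± 0.12, the bicarbonate channel Best2 by 1.19 ± 0.25, and the potassium channel Kcnq1 and its partner Kcne3 by 0.89 ± 0.16 and 0.84 ± 0.14. Sgk1, a kinase that raises sodium uptake, rose by 0.80 ± 0.11, from 8.20 and 8.36 to 9.04, 9.19 and 9.02. The chloride channel Cftr was at 10.36 and 10.44 in control colon and at 10.09, 9.30 and 9.08 in DSS colon, and its difference of -0.98 ± 0.25 did not pass (adjusted p = 0.0556).

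Of the 27 carriers of amino acids and peptides, 3 rose and 1 fell in DSS colon. Slc7a5, the light chain of the exchanger that brings leucine and other large neutral amino acids into growing cells, was at 8.51 and 8.36 in control colon and at 9.63, 10.15 and 10.39 in DSS colon. It rose by 1.65 ± 0.20 (3.15-fold, limma adjusted p = 0.00682), and by 1.83 without KO DSS colon 1. Its heavy chain Slc3a2 (CD98), which serves several light chains, was at 10.96 and 10.92 against 11.13, 11.20 and 11.36. That difference, 0.29 ± 0.13, did not pass (adjusted p = 0.231). The arginine and lysine carrier Slc7a1 rose by 0.58 ± 0.11 (adjusted p = 0.0269), from 8.73 and 8.72 to 9.39, 9.20 and 9.35, and Slc7a6os by 0.57 ± 0.11 (adjusted p = 0.0294). Slc15a1, the proton-coupled peptide transporter, fell by 1.04 ± 0.24 (2.06-fold, adjusted p = 0.0437), from 11.60 and 11.02 to 9.62, 10.31 and 10.64. Slc6a4, which clears serotonin, was at 9.36 and 9.01 against 7.32, 8.38 and 8.41, and with -1.10 ± 0.33 it did not pass (adjusted p = 0.0855).

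**Figure D2:**
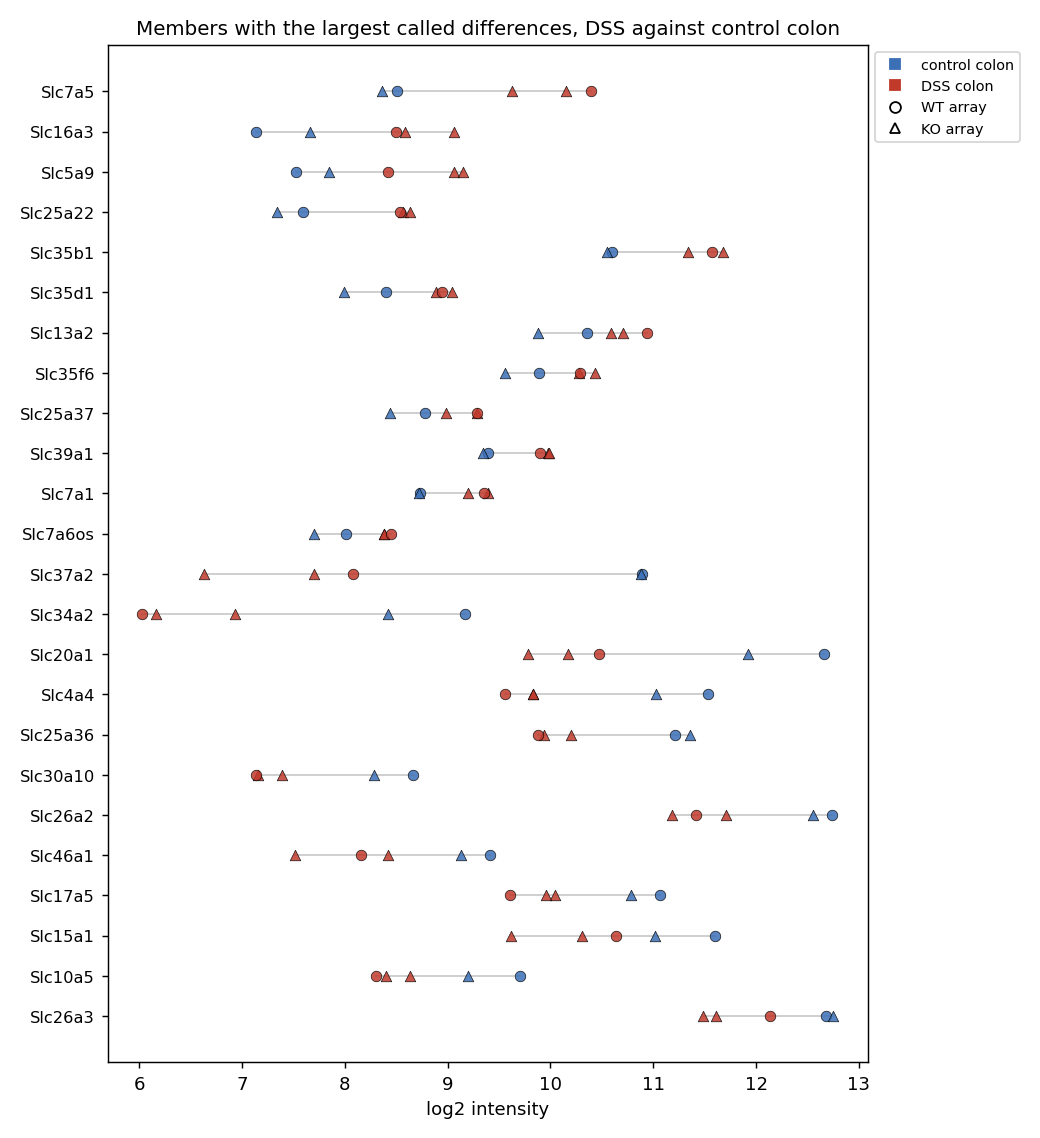
Log2 intensity (x axis) of the 24 members with the largest differences between DSS colon and control colon among those past the threshold, 12 higher above and 12 lower below, 1 symbol per array (circles WT, triangles KO; blue control colon, red DSS colon); grey lines join the lowest and highest array of a gene. In each gene drawn, the 3 DSS arrays lie on one side of the 2 control arrays, as the rule for naming these genes required, and Slc37a2 spans the widest gap, from 10.89 and 10.88 down to 6.63, 7.70 and 8.08.

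Sugar carriers counted 3 higher and 1 lower of 12. Slc37a2, which exchanges glucose 6-phosphate for phosphate in the endoplasmic reticulum, was at 10.89 and 10.88 in control colon and at 6.63, 7.70 and 8.08 in DSS colon. The gene fell by 3.35 ± 0.36 (10.2-fold, limma adjusted p = 0.00458), and by 3.00 without KO DSS colon 1, its lowest array. Its relative Slc37a1 rose by 0.55 ± 0.13 (adjusted p = 0.0451), with 11.03 and 10.63 in control colon and 11.34, 11.39 and 11.32 in DSS colon. Slc2a1, the glucose transporter GLUT1, was at 11.42 and 11.18 against 11.65, 11.85 and 11.81 and rose by 0.49 ± 0.11 (adjusted p = 0.0433). Slc5a9, a sodium-coupled carrier of mannose and glucose, rose by 1.14 ± 0.20 (2.2-fold, adjusted p = 0.0207), from 7.52 and 7.85 to 9.06, 9.15 and 8.42. The sodium-glucose cotransporter Slc5a1 was at 10.45 and 10.42 in control colon and at 9.62, 10.31 and 10.20 in DSS colon, a difference of -0.38 ± 0.21 that did not pass (adjusted p = 0.316).

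Of the 21 nucleoside and nucleotide sugar carriers, many of which supply glycosylation in the secretory pathway, 3 rose and 1 fell. Slc35b1, through which ATP enters the endoplasmic reticulum, was at 10.60 and 10.55 in control colon and at 11.34, 11.68 and 11.57 in DSS colon, and it rose by 0.97 ± 0.13 (1.96-fold, limma adjusted p = 0.0097). Slc35d1, a carrier of UDP-glucuronic acid, rose by 0.79 ± 0.13 (adjusted p = 0.019), from 8.40 and 7.99 to 9.04, 8.89 and 8.94, and Slc35f6 by 0.61 ± 0.14 (adjusted p = 0.0421). Slc35a3, which brings UDP-N-acetylglucosamine into the Golgi, fell by 0.57 ± 0.11, from 11.54 and 11.44 to 10.85, 11.03 and 10.89. The Golgi carriers of sialic acid (Slc35a1) and galactose (Slc35a2) had differences of 0.10 ± 0.15 and 0.01 ± 0.14 and did not pass.

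Metal carriers counted 4 higher and 1 lower of 22. All 4 that rose carry zinc, and each difference was under 0.7 log2 units. Slc39a4, the uptake carrier of the apical membrane, rose by 0.45 ± 0.10, from 10.65 and 10.71 to 11.10, 11.19 and 11.12, the plasma membrane importer Slc39a1 by 0.60 ± 0.11, and Slc39a7, which releases zinc from the endoplasmic reticulum, by 0.48 ± 0.11. By plain means a second probe set of Slc39a1 differed by 0.33 where the first differed by 0.59. The zinc exporter Slc30a1 rose by 0.46 ± 0.11 (limma adjusted p = 0.0441), a call that was lost in 12 of 16 alternative fits, among them that without KO DSS colon 1 (0.44, adjusted p = 0.0528). Slc30a10 belongs to a zinc exporter family but exports manganese. It was at 8.66 and 8.28 in control colon and at 7.15, 7.39 and 7.14 in DSS colon, and fell by 1.24 ± 0.16 (2.37-fold, adjusted p = 0.00832).

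Mitochondrial carriers were the largest family, and 3 of 28 passed. Slc25a22, a glutamate carrier, was at 7.59 and 7.34 in control colon and at 8.57, 8.63 and 8.54 in DSS colon, and rose by 1.13 ± 0.11 (2.19-fold, limma adjusted p = 0.00376). Slc25a37, the iron importer mitoferrin-1, rose by 0.60 ± 0.14 (adjusted p = 0.0448), from 8.78 and 8.44 to 9.29, 8.98 and 9.29. Slc25a36, which carries pyrimidine nucleotides, fell by 1.32 ± 0.12 (2.49-fold, adjusted p = 0.00332), from 11.21 and 11.36 to 9.94, 10.20 and 9.88, and by plain means a second probe set with its symbol differed by -0.88 where the first differed by -1.28. Slc25a5 and Slc25a3 differed by -0.18 ± 0.10 and -0.16 ± 0.11 and did not pass.

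In the other families no member rose. Vitamin, choline and haem carriers had 3 of 11 lower, of which Slc46a1, the proton-coupled folate carrier, was at 9.41 and 9.13 in control colon and at 7.51, 8.42 and 8.16 in DSS colon. It fell by 1.20 ± 0.25 (2.3-fold, limma adjusted p = 0.0328). The choline transporter Slc44a1 fell by 0.77 ± 0.12 and its relative Slc44a3 by 0.73 ± 0.14, while Slc44a4 differed by 0.29 ± 0.13 and did not pass. Organic ion and lipid carriers had 2 of 13 lower. Slc17a5, sialin, which lets sialic acid out of lysosomes, fell by 1.08 ± 0.17 (adjusted p = 0.0144), from 11.07 and 10.78 to 10.04, 9.96 and 9.61, and Slc10a5, a member of the bile acid carrier family, by 1.00 ± 0.18 (adjusted p = 0.021), from 9.70 and 9.20 to 8.63, 8.40 and 8.30.

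Ileum and control colon differed in 56 members. The cystine and amino acid exchanger Slc3a1 with Slc7a9, the phosphate carrier Slc34a2 and the imino acid carrier Slc6a20a were over 3 log2 units higher in ileum. The sugar phosphate carrier Slc37a2 and the phosphate carrier Slc20a1 were over 3 units lower there. Slc3a1, Slc7a9 and Slc34a2 reached the level for membership only through the ileum arrays, and Slc37a2 only through control colon. The large differences of these genes are thus partly tied to how members were chosen. In all, 37 members (23.4%) were higher in ileum and 19 (12%) lower, where 5.94% of all genes were higher and 3.22% lower, and where 10.3% and 5.49% of the genes at a mean of 8 or more were. The median difference was 0.10 for the members, -0.02 over all genes and 0.10 over genes at that level. This comparison shares its 2 control colon arrays with that of DSS.

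The shares of all genes called moved when 1 array was left out, and so did the counts of members. Without KO DSS colon 1, 46 members were higher and 27 lower, where 7.57% and 4.56% of all genes were. Without any 1 of the ileum or control colon arrays, both the counts and the shares of all genes fell. Those fits leave 1 array in a group, so their counts are not given. Of the 56 called members, 23 kept their call in all 15 alternative fits, and the difference of none moved by over 1.5 times. In the fits without a DSS array, with 6 groups or with a variance trend the difference could not move. For ileum against control colon, the fits with labelled sex and without WT DSS colon give one and the same result. Markers of the tissues themselves separated the arrays: 8 ileal enterocyte genes summed to 15.70 to 15.90 in ileum and 11.54 to 12.09 in control colon, 6 of them higher past the threshold, and 6 colonocyte genes to 11.36 to 12.58 and 15.56 to 15.61, all lower. Adipocyte genes, 7 of 8 measured, summed to 12.36 to 12.49 in ileum and 9.46 to 11.38 in control colon, with 3 higher. Leukocyte genes summed to 12.23 to 12.90 and 11.59 to 11.93, with 4 of 11 higher. The part of adipocyte and leukocyte RNA in the differences of the carriers was not tested.

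**Figure D3:**
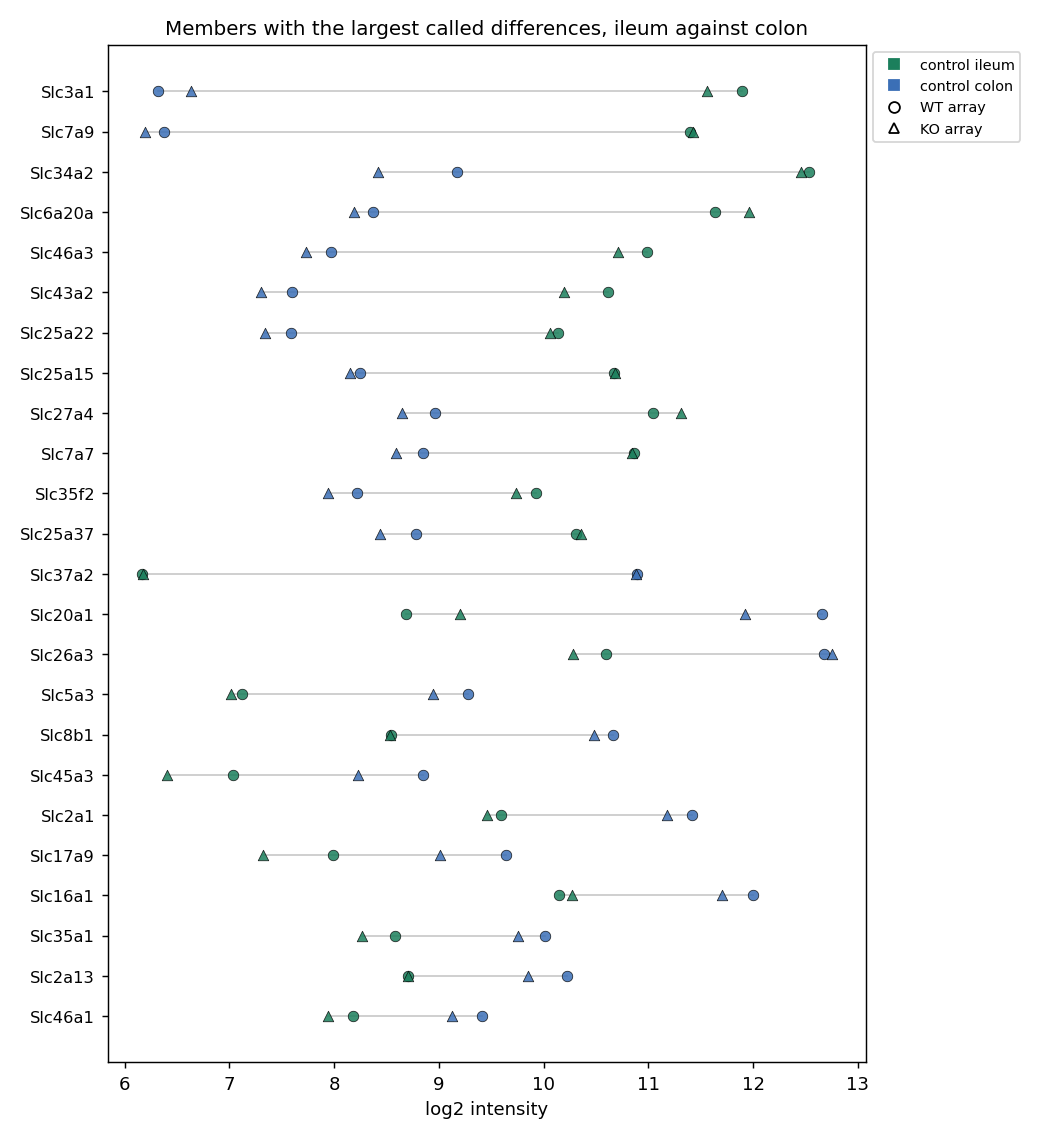
Log2 intensity (x axis) of the 24 members with the largest differences between control ileum and control colon among those past the threshold, 12 higher in ileum above and 12 lower below, 1 symbol per array (circles WT, triangles KO; green ileum, blue control colon); grey lines join the lowest and highest array of a gene. Slc3a1 and Slc7a9 lie at 11.40 to 11.89 in ileum and 6.20 to 6.63 in colon, and Slc37a2 at 6.17 and 6.18 in ileum and 10.89 and 10.88 in colon.

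Amino acid and peptide carriers counted 9 higher in ileum and 0 lower of 27, with a median difference of 0.46. Slc3a1 (rBAT) is the heavy and Slc7a9 the light subunit of the apical exchanger that takes up cystine and basic amino acids. Slc3a1 was at 11.89 and 11.56 in WT and KO ileum and at 6.32 and 6.63 in control colon, a difference of 5.25 ± 0.88 (38-fold, limma adjusted p = 0.0147). Slc7a9 was at 11.40 and 11.43 against 6.38 and 6.20, a difference of 5.12 ± 0.26 (34.9-fold, adjusted p = 0.000132). The groups lay far apart for both subunits. Their levels in DSS colon parted: Slc7a9 was at 6.36, 6.90 and 7.44, and Slc3a1 at 9.60, 7.01 and 6.41, high on KO DSS colon 1 alone. The ileal difference of Slc3a1 does not use the DSS arrays, so leaving that array out kept it at 5.25. Only the spread changed (limma adjusted p = 3.1e-05). The call of Slc3a1 was lost when either ileum or either control colon array was left out, with values from 4.48 to 6.02.

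Because these subunits form one exchanger and were high on the same ileal arrays, their promoter windows are shown, 300 bases that hold a transcription start near their end, from RefSeq on GRCm38.p6, plus strand, 5′ to 3′. Capitals mark matches, on either strand, to 4 motifs of factors known in enterocytes. The letters searched were AGATAA for the GATA family, GTTAAT for one side of the HNF1 site, CAAAGTCC for the HNF4 site and TTTATNG for the CDX family.
Slc3a1, chr17:85028097-85028396: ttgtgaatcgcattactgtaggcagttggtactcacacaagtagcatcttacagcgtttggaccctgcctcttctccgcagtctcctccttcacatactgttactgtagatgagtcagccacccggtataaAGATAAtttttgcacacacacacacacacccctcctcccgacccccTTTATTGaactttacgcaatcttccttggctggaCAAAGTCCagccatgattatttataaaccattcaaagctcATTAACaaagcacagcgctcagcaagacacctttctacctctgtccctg
Slc7a9, chr7:35448842-35449141: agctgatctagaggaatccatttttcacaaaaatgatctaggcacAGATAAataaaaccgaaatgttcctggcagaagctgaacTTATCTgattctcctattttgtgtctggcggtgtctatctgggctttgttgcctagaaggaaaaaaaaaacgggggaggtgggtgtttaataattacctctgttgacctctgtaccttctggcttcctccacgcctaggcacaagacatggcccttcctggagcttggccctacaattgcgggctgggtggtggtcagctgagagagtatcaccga
The Slc3a1 window held 1 match to each of the 4 motifs, the GATA match beginning 119, the CDX match 73 and the HNF4 match 39 bases before the start, and the HNF1 match after it. The Slc7a9 window held 2 GATA matches, 205 and 166 bases before the start, in opposite orientation, and none of the other letters; 2 starts are listed for this gene and the first was read. No matches overlapped. Over 27025 promoter windows, 11.4% held the GATA letters, 7.2% those of HNF1, 1.44% those of HNF4 and 11.3% those of CDX. Of the 127 members with a window, 6, 6, 3 and 6 held them, and of the 27 with a window that were higher in ileum, 2, 2, 2 and 1. A match is a description of letters and no binding site.

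Other apical and basolateral amino acid carriers were also higher in ileum. Slc6a20a, the proline and imino acid transporter, was at 11.64 and 11.96 against 8.37 and 8.19, a difference of 3.52 ± 0.29 (11.5-fold, limma adjusted p = 0.00108). Slc43a2, a basolateral carrier of large neutral amino acids, was at 10.61 and 10.19 against 7.60 and 7.30 (2.95 ± 0.18). Slc7a7, the light chain that passes basic amino acids to the blood, was at 10.86 and 10.84 against 8.85 and 8.59 (2.13 ± 0.19), and its heavy chain Slc3a2 at 11.61 and 11.91 against 10.96 and 10.92 (0.82 ± 0.15). Both heavy chains among the members were thus higher in ileum. The glutamate carrier Slc1a1 (1.17 ± 0.15), the taurine carrier Slc6a6 (0.93 ± 0.13) and Slc38a6 (0.77 ± 0.17) complete the 9. The peptide transporter Slc15a1 was at 11.86 and 11.84 against 11.60 and 11.02, and its difference of 0.54 ± 0.26 did not pass (adjusted p = 0.291).

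For phosphate the ileum and colon were opposite. Slc34a2 was at 12.53 and 12.46 in ileum and at 9.17 and 8.42 in control colon (3.70 ± 0.36, 13-fold, limma adjusted p = 0.00184), whereas Slc20a1 was at 8.69 and 9.20 in ileum and at 12.66 and 11.92 in control colon (-3.35 ± 0.30, 10.2-fold lower, adjusted p = 0.00139). Both lay lower in DSS colon than in control colon, as given above. Inorganic ion carriers as a family had 2 higher and 4 lower of 18. Slc26a3 was at 10.60 and 10.28 in ileum against 12.68 and 12.75 (-2.28 ± 0.18, 4.84-fold lower, adjusted p = 0.000774), Slc8b1 at 8.54 and 8.53 against 10.66 and 10.48 (-2.04 ± 0.11), and Slc26a2 differed by -0.94 ± 0.19. The other called member on the higher side was the scaffold Slc9a3r1 (1.50 ± 0.10), which binds Slc9a3 and carriers of the Slc34 family. Slc4a4 was at 11.31 and 11.23 in ileum against 11.53 and 11.03, a difference of -0.01 ± 0.19 (adjusted p = 0.985). Of the partner genes, 2 of 27 were higher in ileum, the scaffold Pdzk1 (3.25 ± 0.17) and Sgk1 (1.22 ± 0.12), and 9 lower, among them the proton-potassium pump Atp12a (-5.21 ± 0.88), Best2 (-4.45 ± 0.27), Ano1 (-2.92 ± 0.13), Fxyd4 (-2.66 ± 0.16) and the sodium channel subunits Scnn1a (-2.20 ± 0.18) and Scnn1b (-1.88 ± 0.19). Over all genes, 5.94% were higher in ileum and 3.22% lower.

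Sugar carriers were the family with the most members lower in ileum, 6 of 12 against 2 higher. Slc37a2 was at 6.17 and 6.18 in ileum and at 10.89 and 10.88 in control colon (-4.71 ± 0.39, 26.2-fold lower, limma adjusted p = 0.00101), and its level in DSS colon lay between those. Slc5a3, which takes up myo-inositol with sodium, was at 7.12 and 7.02 against 9.28 and 8.94 (-2.04 ± 0.17), and Slc2a13, which takes it up with protons, at 8.71 and 8.71 against 10.22 and 9.85 (-1.32 ± 0.24). Slc2a1 was at 9.59 and 9.46 against 11.42 and 11.18 (-1.77 ± 0.12), Slc45a3 differed by -1.82 ± 0.25 and Slc50a1 by -0.84 ± 0.15. The sodium-coupled Slc5a1 and Slc5a9 were the 2 higher ones: Slc5a1 was at 12.04 and 12.09 against 10.45 and 10.42 (1.63 ± 0.23, adjusted p = 0.00724), and Slc5a9 at 8.94 and 8.72 against 7.52 and 7.85 (1.15 ± 0.22, adjusted p = 0.0233).

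Of the carboxylate carriers, Slc16a1 was lower in ileum, at 10.15 and 10.27 against 12 and 11.70 (-1.64 ± 0.14, limma adjusted p = 0.00108), while Slc13a2 (1.04 ± 0.15) and Slc16a5 (1.17 ± 0.19) were higher. Slc5a8 was at 12.21 and 12.20 in ileum, below both control colon arrays, and its difference of -0.41 ± 0.14 did not pass (adjusted p = 0.159). Of the 13 organic ion and lipid carriers 3 were higher and 1 lower. Slc27a4, which brings fatty acids into enterocytes, was at 11.04 and 11.31 against 8.96 and 8.65 (2.37 ± 0.16), Slc22a5, the carnitine carrier, at 9.41 and 9.52 against 8.39 and 7.92 (1.31 ± 0.16), and its relative Slc22a21 differed by 0.91 ± 0.17. Slc27a1, another fatty acid carrier, was at 8.91 and 9 against 9.53 and 8.76, and its difference of -0.19 ± 0.38 did not pass. Slc17a9, which loads nucleotides into vesicles, was the 1 organic ion carrier on the lower side, at 7.99 and 7.32 against 9.64 and 9.01 (-1.67 ± 0.25). In the vitamin family Slc46a3, a lysosomal protein, differed by 3.00 ± 0.18 and the riboflavin carrier Slc52a3 by 1.55 ± 0.16, while Slc46a1 (-1.21 ± 0.27) and Slc44a3 (-1.12 ± 0.15) were lower. The folate carrier Slc46a1 lost its call when any 1 of the ileum or control colon arrays, or WT DSS colon, was left out.

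Mitochondrial carriers had 7 higher and 2 lower of 28. Slc25a22 was at 10.14 and 10.06 in ileum and at 7.59 and 7.34 in control colon (2.64 ± 0.12, 6.22-fold, limma adjusted p = 9.77e-05), and Slc25a15, the ornithine carrier of the urea cycle and of citrulline synthesis, at 10.67 and 10.68 against 8.25 and 8.15 (2.48 ± 0.12, 5.56-fold, adjusted p = 0.00011). Slc25a37 was at 10.31 and 10.36 against 8.78 and 8.44 (1.73 ± 0.15). For these 3 carriers both ileal arrays lay above both control colon arrays, as the rule for naming them required. Over all 19938 genes, 5149 lay higher and 5632 lower in ileum without overlap. The carriers Slc25a44 (1.07 ± 0.18), Slc25a10 (0.75 ± 0.12), Slc25a1 (0.70 ± 0.14) and Slc25a24 (0.57 ± 0.11) were higher by less, and Slc25a40 (-0.87 ± 0.14) and Slc25a36 (-0.82 ± 0.13) were lower.

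Metal carriers had 6 of 22 higher in ileum and 0 lower. Slc39a14, which takes up manganese, zinc and iron, was at 9.52 and 9.81 against 8.15 and 8.21 (1.49 ± 0.17, limma adjusted p = 0.00322). The zinc exporter Slc30a1 was at 9.65 and 9.21 against 8.32 and 7.89 (1.32 ± 0.12), the magnesium carrier family member Slc41a3 differed by 1.30 ± 0.10, and Slc30a10 was at 9.40 and 9.59 against 8.66 and 8.28 (1.02 ± 0.17). Slc30a4 (0.79 ± 0.13) and Slc39a4 (0.74 ± 0.10) were the others. Nucleotide sugar carriers were split, with 4 higher and 3 lower of 21: Slc35f2 (1.75 ± 0.20), Slc35e2 (1.47 ± 0.14), Slc35b1 (1.09 ± 0.14) and Slc35d1 (1.04 ± 0.15) were higher, and the Golgi carriers of sialic acid, galactose and N-acetylglucosamine, Slc35a1 (-1.46 ± 0.16), Slc35a2 (-0.96 ± 0.15) and Slc35a3 (-0.60 ± 0.12), were all lower.

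No member passed the threshold between the genotypes. KO against WT over all conditions called 0 of 158 (limma), where 0.00502% of all genes, Atg4b alone, were called, and 8 members and 720 of the 19938 genes had an unadjusted p under 0.05. In DSS colon KO against WT called 0 members and 0% of all genes, with 10 members and 776 genes at an unadjusted p under 0.05, and the difference between the KO effect in DSS colon and that in controls called 0 members and 0%, with 8 members and 639 genes. Among members whose KO array lay on one side of WT in every pair, the largest differences were those of the sodium-proton exchanger Slc9a3 (0.50 ± 0.35), the scaffold Slc9a3r2 (0.50 ± 0.17) and Slc25a23 (0.37 ± 0.29) upward, and those of Slc13a2 (-0.49 ± 0.11), the peptide transporter Slc15a1 (-0.45 ± 0.20) and the zinc exporter Slc30a1 (-0.34 ± 0.09) downward, all with an adjusted p of 0.989. Slc13a2, for example, was at 11.55 in WT and 10.77 in KO ileum, at 10.36 and 9.88 in control colon, and at 10.94 in WT and 10.71 and 10.59 in KO DSS colon.

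Within DSS colon, where 1 WT array stands against 2 KO arrays, the largest differences with both KO arrays on one side were those of Slc3a1 (1.89 ± 0.95), Slc12a8 (1.53 ± 0.35) and Slc17a4 (1.12 ± 0.32) upward and of Slc37a2 (-0.92 ± 0.41), Slc7a9 (-0.81 ± 0.25) and Slc15a1 (-0.68 ± 0.32) downward, each with an adjusted p of 1. Without KO DSS colon 1 the differences were 0.60 for Slc3a1, 1.20 for Slc12a8, 0.84 for Slc17a4, -0.39 for Slc37a2, -0.54 for Slc7a9 and -0.34 for Slc15a1, so that each was smaller. Without KO DSS colon 2, KO DSS colon 1 alone stood against WT DSS colon. The differences were then 3.19, 1.87, 1.40, -1.45, -1.08 and -1.03 in the same order. No spread within DSS colon enters that fit, so its calls are not listed.

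Some members were chosen for description after their values were seen, because 1 array stood far from the rest. Slc6a14, a sodium- and chloride-coupled carrier of neutral and basic amino acids, was at 11.32 in WT ileum and 5.68 in KO ileum, under the lower quartile of that array (5.71), and at 12.41, 12.13, 11.65, 11.54 and 11.56 on the colon arrays. It was the only member with any array below that array's lower quartile. Its ileal difference of -3.77 ± 1.30 did not pass (limma adjusted p = 0.151), and it was -0.99 without KO ileum. The difference was -6.54 without WT ileum and -3.77 in a model with 6 groups. It passed the threshold in both, but neither fit counts the gap between WT and KO ileum as spread. These passes therefore carry no weight. With 1 array for each genotype in ileum, the KO and WT values have no replicate check. Slc28a3, a concentrative nucleoside carrier, was at 6.75 on KO DSS colon 1 and at 8.34 to 9.15 on the other 6 arrays. Slc9a3 was at 11.45 on KO DSS colon 1 and at 8.18 to 10.02 elsewhere, and Slc24a3, a calcium exchanger, at 8.81 there against 7.14 and 6.92 on the other DSS arrays and 8.87 to 9.26 on the controls.

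**Figure D4:**
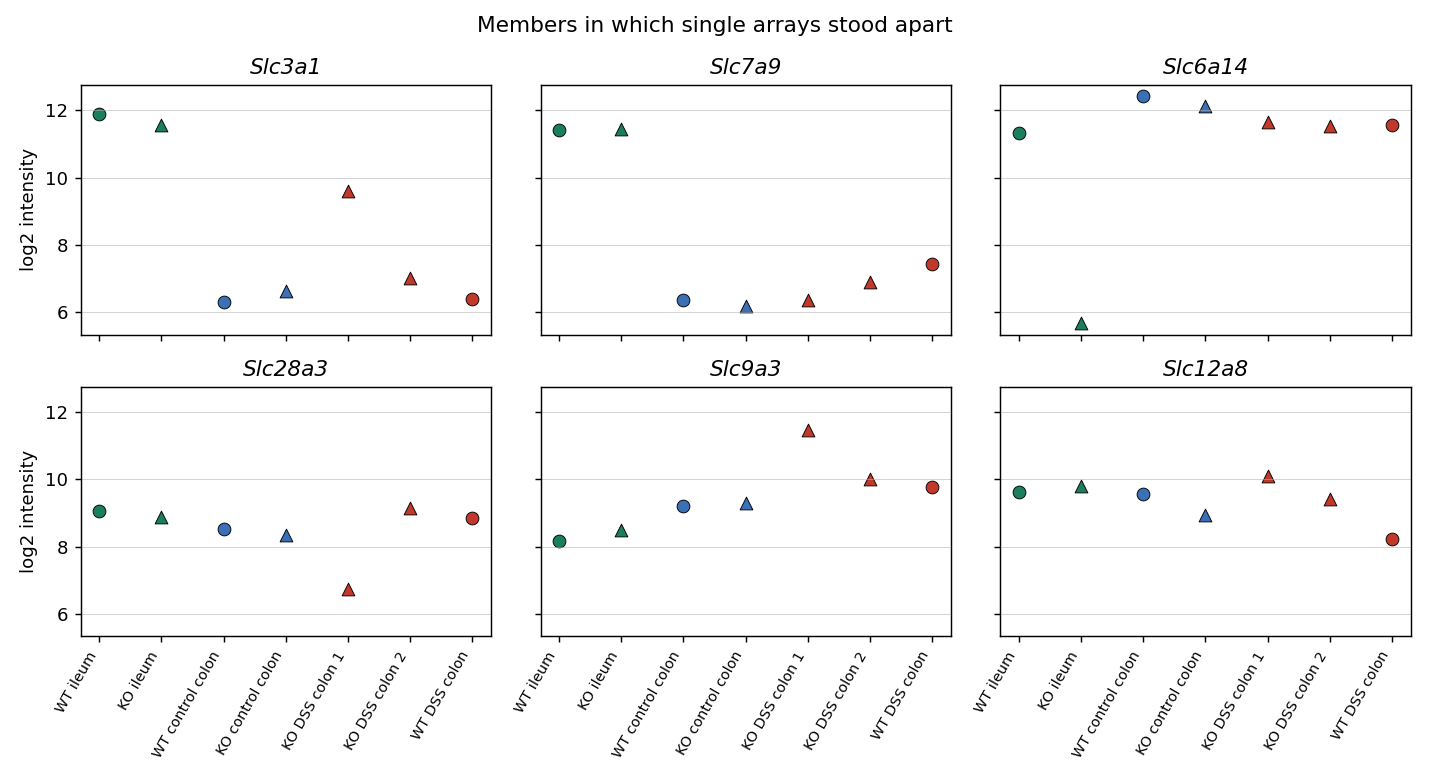
Log2 intensity (y axis) on each of the 7 arrays (x axis) of 6 members chosen after their values were seen; circles are WT and triangles KO, green ileum, blue control colon and red DSS colon. Slc6a14 is low on KO ileum alone (5.68), Slc3a1 and Slc9a3 are higher on KO DSS colon 1 (9.60 and 11.45) than on the other colon arrays, and Slc28a3 is lower there (6.75).

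Of the members named by their calls or differences, which leaves out Slc6a14, the 4 with the widest range over the arrays were set against all genes by their profile over the 7 arrays, as a description in which the points share tissue and treatment. The genes most like Slc34a2 were Smpd2, Smim24 and Fmo5 (Pearson r of 0.999, 0.997 and 0.996), Fmo5 for instance at 10.56 and 10.95 in ileum, 8.98 and 8.35 in control colon and 7.39, 7.07 and 6.98 in DSS colon. Those most like Slc37a2 were 2310079G19Rik, Olfr1368 and Cyp2d12 (0.993, 0.992 and 0.991), of which Olfr1368 ran only from 4.47 to 4.99. Slc7a9 was nearest to Snx9, Vps33b and Ift20 (0.996, 0.996 and 0.995). Slc3a1 was nearest to Prkg2, Zfp703 and H1f10 (0.995, 0.994 and 0.991), and Prkg2, a kinase that acts on ion transport in the gut, shared its high value on KO DSS colon 1, at 7.39 against 5.45 and 5.34 on the other DSS arrays.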

How the data were processed

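The authors deposited 1 linear intensity per probe set and array (35512 probe sets, 10.4 to 22236.4, array medians 121.4 to 126.45); the steps of summarising and normalization are not given in the sources used here. Because the deposited intensity was linear, log2 was taken here. Probe sets with 1 gene symbol (21789; 1621 had several and 12102 none) were used, the one with the highest mean per gene, which gave 19938 genes; 9 members had several probe sets, and all 158 symbols matched RefSeq. Models were fitted with limma 3.58.1 in R 4.3.3, condition plus genotype, or with separate genotype effects in controls and DSS colon, on all genes with Benjamini-Hochberg adjustment and a threshold of 0.05. With 7 arrays in 6 groups, the number of arrays limits precision. On simulated data with 200 changed genes, a change of 1 log2 unit was recovered for 94.0% in the DSS, 82.5% in the tissue and 91.5% in the genotype comparison, and a change of 0.6 for 0%, 0% and 41.5%. The real fits called 1436 and 684 genes for DSS, 1184 and 642 for tissue and 1 for genotype. The cut set by the adjustment depends on how many genes differ, so the simulated rates do not carry over to these fits.

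Members, families and marker lists were chosen with earlier results of these data known. Genes named are the 12 largest calls each way without overlap between groups, the 2 highest and 2 most different in each family, 3 each way for genotype, and those at the level of 8; other called members are given by value. Other scalings, filters and models and leaving out each array were tried. Figures were drawn with matplotlib 3.10.9.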

Additional observations from a re-analysis of the deposited data

How the results depend on the processing

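A model with 6 groups, in which only the KO DSS pair gives an error, called 0 members higher and 2 lower in DSS colon (17 and 18 in the reported fit), and 22 higher and 10 lower in ileum (37 and 19). Fewer of all genes passed in that model too. Colon arrays alone gave 10 higher in DSS colon, where 5.6% of all genes were higher, and labelled sex as a covariate 8, where 5.99% were. The markers go against labelled sex on the 3 WT arrays, so that covariate does not adjust for the sex they show. Raising the mean level for membership to 9 left 11 higher in DSS colon and 20 higher in ileum, from fewer members. Leaving out 1 array at a time gave 0 to 25 higher and 1 to 31 lower in DSS colon, 16 to 46 higher and 8 to 27 lower in ileum, 0 for KO against WT over all conditions, and 0 to 13 for KO against WT in DSS colon. None of the counts under quantile normalization, centring, a filter on dim genes, averaged probe sets, a variance trend, a pseudocount of 32 or membership without the 3 genes that are no carriers (added after seeing the data) moved by over 1.5 times. No called member changed sign in any of these fits, and of the 35 called for DSS Slc4a4 alone kept its call in all 16. Colon arrays alone give no tissue value, and without WT DSS colon or with labelled sex no KO difference in DSS colon could be fitted. Leaving out either KO DSS array leaves 1 KO array against 1 WT array for that difference, with no spread within DSS colon, so no count is given. No paired analysis was possible because the groups share fewer than 2 replicate numbers. A group of 1 array is assumed to vary like the others. The called DSS differences under 0.6 log2 units each lost their call in 5 to 12 of the 16 fits. Such differences are at the limit of what these arrays show.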
